A study of Homo sapiens with 6 samples.

Results

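Histone genes were followed in human embryonic stem cells kept in simulated microgravity (sµg) or in normal gravity (1g). Members were the protein-coding genes whose symbols name a histone of the H1, H2A, H2B, H3 or H4 family, the H2A.Z, H2AX, H2AJ, H3.3 or macroH2A variants included. Symbols came from GENCODE 44, matched by identifier, and 79 of the 60719 genes in the tables are described here. Of these, 67 were replication-dependent genes inside the histone gene clusters, 9 were variant genes, and 3 (H1-7, H1-8 and H2BC12L) belonged to neither set. The variant H2AJ lies near the replication-dependent H4C16 on chromosome 12, and the other variants lie outside the clusters. H2AC18 and H2AC19 could not be matched and were not analysed here.

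The study asked how sµg acts on the self-renewal of pluripotent stem cells, and RNA sequencing compared the transcriptomes of both conditions. The sµg cells were turned on a clinostat, a device that rotates the culture so that the direction of gravity averages out, and the 1g cells were held static. Each condition was measured in 3 libraries, 96 h of culture were given in the methods, and cells of both conditions grew on Matrigel in StemFlex Medium. The labels name the H1 and H9 embryonic stem cell lines for every library without saying which library holds which line, so a difference in the mix of lines and a difference in condition cannot be told apart. Below, H1 stands for the linker histone family unless a cell line is meant.

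Histones package DNA into nucleosomes, in which DNA winds around a core of H2A, H2B, H3 and H4 while H1 binds the linker DNA between cores. Replication-dependent histone genes are transcribed mainly in S phase, and their mRNAs end in a conserved stem-loop that is bound by SLBP rather than in a poly(A) tail. Variant genes are transcribed throughout the cell cycle, give polyadenylated mRNA as a rule, and supply chromatin outside replication. The libraries were made with a kit that selects poly(A) RNA, so replication-dependent mRNAs entered them only in part, and the values below are those of the RNA that the selection kept. Pluripotent cells divide fast with a short G1 phase, and histone mRNA is abundant in such cells.

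The libraries held between 19971097 and 20588215 expected counts in sµg, against 20876937 to 28506848 in 1g. The sµg replicate 3 stood apart from its group. A chi-square statistic per gene was 6.22 and 5.93 between it and the other sµg libraries, against 1.64 between sµg replicates 1 and 2, and lay between 1.78 and 2.22 among the 1g libraries. Results that rest on it are therefore given with and without it, and no pair of libraries agreed so closely that it could be 1 library deposited again under another name. Whether replicate libraries stem from different cultures is not said in the labels, so every p-value here reflects variation among the libraries as sequenced, and this variation may be technical. Pluripotency genes were expressed in all libraries. Of the 9 markers, 0 were higher and 3 were lower in sµg (DNMT3B, LIN28A and SALL4), or 5 lower without sµg replicate 3, while POU5F1 averaged 1971 CPM (counts scaled to library size) in sµg and 1945 CPM in 1g. Over all genes tested, 15.5% were called higher and 18.2% lower in sµg by the edgeR test described below. Summed levels of markers of differentiated cells differed between conditions. Of the 8 markers of trophectoderm and amnion, 7 were measured well enough to be tested and all 7 were lower in sµg, their summed level lying between 18.8 and 21.6 CPM in sµg, against 78.8 to 84.2 CPM in 1g, with CGA listed at 0 in all libraries. For the 6 neural markers the summed level was 462 to 491 CPM in sµg and 533 to 554 CPM in 1g, with 1 higher and 3 lower of 4 tested. For the 8 mesoderm and endoderm markers it was 3.68 to 4.85 CPM in sµg and 6.45 to 8.11 CPM in 1g, with 0 higher and 2 lower of 5 tested (3 lower without sµg replicate 3).

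The stem-loop that sets the replication-dependent mRNAs apart was read from the genome for every member. All 67 replication-dependent genes carried it within 200 bases after the stop codon, as did 1 of the 9 variant genes, H2AX. It began 22 to 62 bases after the stop codon, with a median of 35. Across members the 16 bases took 11 forms, and 38 members shared the commonest, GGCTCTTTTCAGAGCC. The stem-loops of the 8 replication-dependent genes that were called higher in sµg are shown with that of H2AX, since the poly(A) selection acts on this end of the mRNA. Capitals mark the 16-base stem-loop, written in the sense of the gene from 5′ to 3′, and positions are on GRCh38.
H2AC6, chr6:26124664-26124689, plus strand: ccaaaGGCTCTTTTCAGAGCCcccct
H1-2, chr6:26055739-26055764, minus strand: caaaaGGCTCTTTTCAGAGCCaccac
H2BC9, chr6:26252050-26252075, plus strand: ccaaaGGCTCTTTTCAGAGCCactta
H3C10, chr6:27810511-27810536, plus strand: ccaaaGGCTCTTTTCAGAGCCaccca
H2BC5, chr6:26158582-26158607, plus strand: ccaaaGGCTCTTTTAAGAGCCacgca
H2BC11, chr6:27132316-27132341, minus strand: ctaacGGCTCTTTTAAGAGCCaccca
H2BC12, chr6:27146361-27146386, minus strand: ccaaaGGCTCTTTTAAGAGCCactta
H4C8, chr6:26285126-26285151, minus strand: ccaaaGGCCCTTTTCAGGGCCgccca
H2AX, chr11:119094893-119094918, minus strand: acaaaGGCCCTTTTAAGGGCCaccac
The first 4 share the commonest form, the 3 H2B genes after them share a form with another loop, and H4C8 and H2AX share another stem and differ in the loop.

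Replication-dependent histone genes that could be measured were higher in sµg where they differed. After the filter on low counts 27 of the 67 remained, and 8 of these were called higher and 0 lower in sµg by edgeR's quasi-likelihood test at a Benjamini-Hochberg adjusted p under 0.05. Over all 16763 genes tested, 15.5% were called higher and 18.2% lower, against 29.6% higher among the 27. The log2 fold change of sµg over 1g had a median of 0.50 in the 27 genes and 0.01 over all genes, and its sign was positive in 26 of the 27. In 13 of them the 3 sµg libraries lay above the 3 1g libraries in CPM with no overlap, which holds for 21.8% of all genes tested, and in 0 they lay below, which holds for 23.7%. A gene that is low in one condition passes the filter through the other, so these shares describe the measured genes and not the whole clusters. Without sµg replicate 3, 7 genes were called higher and 0 lower, and the median was 0.35. Of 30 S phase genes 11 were higher and 2 lower (13 and 3 without sµg replicate 3), with a median log2 fold change of 0.08. The part of the share of cells in S phase in the histone values was not tested.

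The 40 replication-dependent genes that failed the filter had few reads, and 5 of them had none in any library. Their median total over the 6 libraries was 18.1 expected counts. Outside H4C12, which is described with H4C11, the largest total was 61.8 expected counts, in H2BC6. The gene models of the tables differed between the measured and the unmeasured genes. Among the 27 tested genes, 21 had a transcript model more than 100 bases longer than the stretch from the start to the end of the stem-loop, against 4 of the 40 genes that were not tested. H2AC6 and H2BC9, for example, had models of up to 1668 and 2060 bases in the tables, while their stem-loops end 513 and 457 bases from the start. By contrast, the models of H1-2 and H2BC12, with 731 and 495 bases, stop just past it. Not every longer model holds the stem-loop, and the 789-base model of H2BC5 lacks it. Reads from RNA that does not end at the stem-loop are thus counted for some members and not for others. Their part in the measured levels was not tested. Other RNAs that lack a canonical poly(A) tail, in some of their forms at least, were also looked at. Of 35 such RNAs 5 could be tested, 0 were higher (4 were lower without sµg replicate 3), and NEAT1 and MALAT1 were lower, with log2 fold changes of -0.80 and -0.49 (edgeR adjusted p = 2.33e-05 and 4.97e-05). Over all genes tested, 15.5% were called higher and 18.2% lower. The summed level of all 35 lay between 71.0 and 77.8 CPM in sµg, against 93.5 to 103.7 CPM in 1g, and MALAT1 made up most of it, with means of 43.9 CPM in sµg and 61.8 CPM in 1g.

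**Figure D1:**
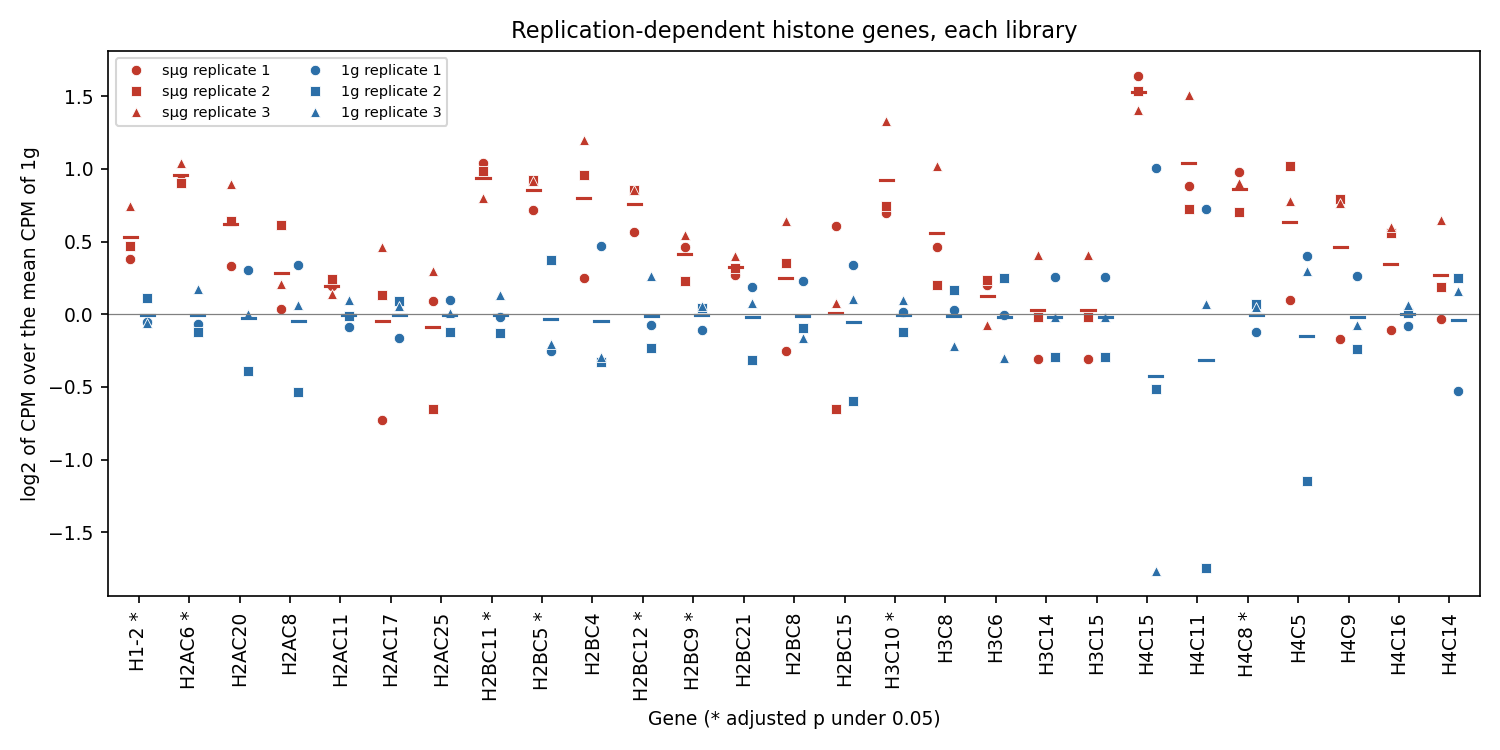
Each of the 27 replication-dependent histone genes tested is shown with its 3 sµg libraries on the left in red and its 3 1g libraries on the right in blue, as the log2 of CPM over the mean CPM of 1g. Short lines are means of the log2 values, symbols mark the replicate number, stars mark the 8 genes with an adjusted p under 0.05, and in each of these 8 every sµg library lies above every 1g library.

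H2AC6, which encodes a core histone H2A, was the replication-dependent gene with the most reads and the smallest adjusted p. Its level was 17.6, 17.3 and 19.1 CPM in sµg, against 8.83, 8.54 and 10.4 CPM in 1g. Every sµg library thus lay above every 1g library, and the log2 fold change was 0.96 ± 0.0875 (SE, n = 3 each, edgeR adjusted p = 1.21e-07), a 1.94-fold higher level. The other 5 H2A genes tested did not pass the test. H2AC11 had 3.03, 3.13 and 2.92 CPM in sµg and 2.48, 2.62 and 2.82 CPM in 1g, which did not overlap but differed by only 0.20 on the log2 scale (edgeR adjusted p = 0.376). H2AC25, from the distal cluster on chromosome 1, had 6.06, 3.63 and 6.997 CPM in sµg and 6.10, 5.24 and 5.73 CPM in 1g. Its groups overlapped, and its log2 fold change of -0.04 was the single negative one among the 27.

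H2B genes made up 4 of the 8 calls, out of 8 H2B genes tested and 18 described. Over all genes tested, 15.5% were called higher and 18.2% lower. H2BC12 had 7.50, 9.19 and 9.18 CPM in sµg, against 4.82, 4.32 and 6.08 CPM in 1g, a log2 fold change of 0.76 ± 0.13 (SE, n = 3 each, edgeR adjusted p = 0.000174). H2BC11 was lower in level, with 2.07, 1.99 and 1.75 CPM in sµg, against 0.993, 0.921 and 1.10 CPM in 1g, and its log2 fold change was 0.94 ± 0.23 (SE, edgeR adjusted p = 0.00395). H2BC9 had 7.07, 6.01 and 7.48 CPM in sµg, against 4.75, 5.29 and 5.33 CPM in 1g, a log2 fold change of 0.43 ± 0.12 (SE, edgeR adjusted p = 0.0104). In all of these the libraries of the 2 conditions did not overlap. H2BC9 did not pass without 1g replicate 1 and under the alternatives that use length. The 4 H2B genes that were not called had log2 fold changes between 0.04 (H2BC15, whose reads are shared with similar sequences in all libraries) and 0.81 (H2BC4, edgeR adjusted p = 0.0977).

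H2BC5 was also higher, with 3.27, 3.78 and 3.74 CPM in sµg, against 1.67, 2.57 and 1.72 CPM in 1g. Its groups did not overlap, and the log2 fold change was 0.87 ± 0.189 (SE, n = 3 each, edgeR adjusted p = 0.00154). The gene overlaps the pseudogene LARP1P1 on its own strand and an unnamed gene on the opposite strand. Its counts were whole in all 6 libraries, and whether reads were shared with either was not tested. It did not pass with the effective length offset or with limma on log2(TPM + 0.1). H2BC5 has 2 transcripts that passed the filter, and they differ at the end that matters for poly(A) selection. H2BC5-201, of 789 bases, lacks the stem-loop, and it had 2.51, 3.16 and 3.22 CPM in sµg, against 1.11, 1.40 and 1.69 CPM in 1g. The stem-loop transcript H2BC5-202 had 0.801, 0.649 and 0.499 CPM in sµg and 0.585, 1.20 and 0.0486 CPM in 1g. The first did not overlap between conditions and the second did. Neither passed the test across transcripts, with edgeR adjusted p = 0.144 for H2BC5-201 at a log2 fold change of 1.07 and 0.985 for H2BC5-202 at 0.09, and the difference between both was not tested.

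Many H2A and H2B genes lie in divergent pairs, and their promoters often carry an octamer, ATTTGCAT, to which the factor OCT1 binds with its coactivator in S phase. A search of the 250 bases before the start on both strands found it in 14 of 18 replication-dependent H2B promoters and in 11 of 14 H2A promoters, against 1.66% of 27305 promoters of RefSeq genes. It was found in 0 of 13 H4 and 0 of 6 H1 promoters. The windows of divergent partners, such as H2BC11 and H2AC11, cover largely the same stretch. A match there is counted for both genes, so the H2A and H2B counts are not of separate stretches. The same holds for the counts of the other motifs below. The single match among 11 H3 promoters, in H3C4, lay in a window that is the same stretch as that of the H2A gene H2AC7, since the first start listed for each gene was used and RefSeq lists another for H3C4. The 80 bases before the start of the 4 called H2B genes are shown for these motifs. Capitals mark the octamer, the CCAAT box (CCAAT) and the TATA box (TATAAA), and the sequences are from RefSeq on GRCh38.p14.
H2BC12, chr6:27146859-27146938, minus strand: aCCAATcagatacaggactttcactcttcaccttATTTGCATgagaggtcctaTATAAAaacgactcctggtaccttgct
H2BC11, chr6:27132796-27132875, minus strand: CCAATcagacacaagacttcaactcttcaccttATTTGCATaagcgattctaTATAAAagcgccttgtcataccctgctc
H2BC9, chr6:26251534-26251613, plus strand: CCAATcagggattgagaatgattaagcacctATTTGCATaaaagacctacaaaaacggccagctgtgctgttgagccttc
H2BC5, chr6:26158041-26158120, plus strand: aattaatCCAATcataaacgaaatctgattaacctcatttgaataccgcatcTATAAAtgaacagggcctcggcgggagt
The order CCAAT box, octamer, TATA box is that of H2BC12 and H2BC11. H2BC9 has no exact TATAAA and H2BC5 no exact octamer in the window. The CCAAT box was found in 52 of 62 replication-dependent promoters, against 33.0% of all promoters, and TATAAA in 40 of 62, against 11.1%. A heptamer of H1 promoters, AAACACA, was found in 6 of 6 replication-dependent H1 promoters, against 4.95% of all. Such matches are letters in a window and not binding sites, and uncalled members such as H2BC4 and H2BC8 belong to the same families.

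H1-2 was the single replication-dependent linker histone that passed the filter. It had 10.2, 10.9 and 13.2 CPM in sµg, against 7.59, 8.49 and 7.54 CPM in 1g. The libraries did not overlap, sµg replicate 3 was the highest, and the log2 fold change was 0.54 ± 0.105 (SE, n = 3 each, edgeR adjusted p = 0.000573). Without sµg replicate 3 it was 0.43 (edgeR adjusted p = 0.00139). H1-3, H1-4 and H1-5, which supply much of the linker histone of dividing cells, failed the filter with at most 18 expected counts summed over the 3 libraries of a condition.

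Among 5 H3 genes tested H3C10 was higher, with 1.54, 1.59 and 2.38 CPM in sµg, against 0.957, 0.873 and 1.01 CPM in 1g. Its log2 fold change was 0.95 ± 0.257 (SE, n = 3 each, edgeR adjusted p = 0.00796). The groups did not overlap, but the call rests on sµg replicate 3, without which the log2 fold change was 0.72 (edgeR adjusted p = 0.0647). H3C8 had 1.49, 1.24 and 2.19 CPM in sµg, against 1.10, 1.21 and 0.925 CPM in 1g, and did not pass (edgeR adjusted p = 0.0903). H3C6, with 4.18, 4.27 and 3.45 CPM in sµg and 3.62, 4.32 and 2.95 CPM in 1g, overlapped between conditions, with a log2 fold change of 0.13. H3C14 and H3C15 encode the same protein and were given identical values in every library, a log2 fold change of 0.02 each, because their reads could not be told apart.

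The H4 genes encode essentially a single protein, and reads were divided among several of them. H4C8, whose counts were whole in all 6 libraries, had 7.40, 6.11 and 6.997 CPM in sµg, against 3.44, 3.93 and 3.88 CPM in 1g. The libraries did not overlap, and the log2 fold change was 0.87 ± 0.127 (SE, n = 3 each, edgeR adjusted p = 3.22e-05). H4C11 was the H4 gene with the highest TPM, and its values spread widely. H4C11 was given 229, 198 and 349 expected counts in sµg, against 278, 36.7 and 142 in 1g. H4C12, a near-identical copy with which RSEM divides its reads, had 0 expected counts in each sµg library and 0, 122 and 56.1 in 1g. The split between the copies is uncertain, so neither gene was read alone. Their sum was 11.01, 9.84 and 17.0 CPM in sµg and 9.86, 7.71 and 8.73 CPM in 1g. H4C11 with H4C12 summed did not pass the test at a log2 fold change of 0.51 (edgeR adjusted p = 0.146). The ratio of mean CPM of the pair, sµg over 1g, was 1.44, or 1.19 without sµg replicate 3.

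H4C14 and H4C15 share reads in the same way and had fractional counts in every library. Apart they did not pass, except H4C15 with limma on both TPM scales and without 1g replicate 1, with log2 fold changes of 0.32 for H4C14 and 1.46 for H4C15. Their sum was 12.5, 13.3 and 15.99 CPM in sµg, against 8.51, 9.85 and 8.64 CPM in 1g. The sum did not overlap between conditions and was 0.63 higher on the log2 scale (edgeR adjusted p = 8.54e-05). It was highest in sµg replicate 3, and the ratio of its mean CPM, sµg over 1g, was 1.55, or 1.43 without that replicate. With the pairs summed, 9 of 25 replication-dependent features were called higher in place of 8 of 27. All 8 genes called one by one had whole counts in 6 libraries, which does not show that no reads were shared.

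The TPM scale divides counts by effective length and sets each library to a common total, so the genes of a class can be added. Genes with longer models weigh less per read in such sums. H2BC12 averaged 8.62 CPM and 39.15 TPM in sµg, while H2BC9 averaged 6.85 CPM and 4.88 TPM. Over all 67 replication-dependent genes the sum was 266, 262 and 338 TPM in sµg, against 204, 190 and 197 TPM in 1g. Every sµg library lay above every 1g library, replicate 3 of sµg stood highest, and the ratio of means was 1.47, or 1.34 without that replicate. The sums of H1, H2A, H2B and H4 genes did not overlap between conditions either. H2B genes summed to 73.8 ± 6.4 TPM in sµg and 44.9 ± 2.38 TPM in 1g (SD, n = 3 each), a ratio of 1.64. H4 genes summed to 129 ± 32.7 TPM in sµg and 88.9 ± 7.05 TPM in 1g. Their ratio of 1.45 was 1.24 without sµg replicate 3. H4C11 and H4C12 together made up 89.4 TPM of this sum in sµg and 61.7 TPM in 1g. Over all replication-dependent genes without this pair the TPM ratio was 1.48, or 1.4 without sµg replicate 3. H3 genes summed to 10.7, 9.88 and 12.5 TPM in sµg and 8.78, 10.9 and 7.78 TPM in 1g, which overlapped. These sums are descriptions with no test.

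**Figure D2:**
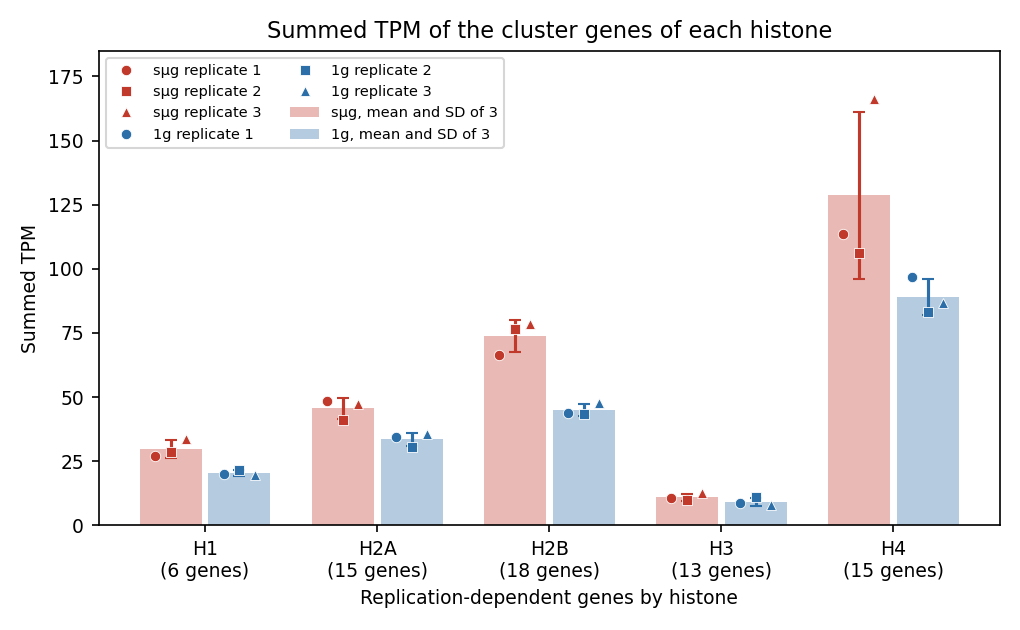
Bars give the mean summed TPM of the replication-dependent genes of each histone family with SD over 3 libraries, sµg in red on the left and 1g in blue on the right, and symbols give each library. H4 genes reach 166 TPM in sµg replicate 3, against 106 and 114 TPM in the other sµg libraries, and the H3 sums overlap between conditions. Bar heights also depend on the lengths of the gene models.

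All 9 variant genes passed the filter, and they made up most of the histone mRNA described. Replication-dependent genes held 5.71, 5.59 and 7.02% of the TPM summed over the 79 genes in sµg and 4.87, 4.61 and 4.74% in 1g. Of the variants, 2 were called higher and 2 lower in sµg (3 and 3 without sµg replicate 3, with H3-3A added to the higher and H2AJ to the lower), while 15.5% and 18.2% of all genes tested were called in those directions. With 2 of 9 in each direction these shares are near those of all genes, and the calls had no direction in common. The log2 fold change was positive in 6 variants and negative in 3. Summed over the variants the level was 4396, 4427 and 4475 TPM in sµg, against 3984, 3929 and 3961 TPM in 1g. These sums did not overlap and were not tested. The ratio of means was 1.12, or 1.11 without sµg replicate 3, and 1.07 on the CPM scale.

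H1-10, the H1.X linker histone of chromosome 3, had 59.7, 58.3 and 61.6 CPM in sµg, against 90.6, 75.8 and 78.3 CPM in 1g. Every sµg library lay below every 1g library, and the log2 fold change was -0.45 ± 0.0596 (SE, n = 3 each, edgeR adjusted p = 3.4e-05). Without sµg replicate 3 it was -0.47 (edgeR adjusted p = 0.0094). H1-10 overlaps H1-10-AS1 on the opposite strand, and by default RSEM does not use strand, so reads in the shared stretch cannot be told apart by strand. Its counts were whole in 4 of the 6 libraries, and how many reads this concerns was not tested. Markers of trophectoderm and amnion were lower in sµg as well, in 7 of 7 tested with a median log2 fold change of -2.34, and their part in the H1-10 value was not tested. In bulk RNA, fewer cells of a type and less RNA per cell cannot be told apart. On the TPM scale H1-10 averaged 60.4 TPM in sµg and 80.5 TPM in 1g, and H1-2 averaged 28.6 TPM in sµg and 19.4 TPM in 1g.

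H2A.Z, the variant that marks promoters and enhancers, is encoded by a pair of genes that moved in opposite directions by small amounts. H2AZ1, the more abundant, had 860, 866 and 942 CPM in sµg, against 752, 769 and 777 CPM in 1g, a log2 fold change of 0.22 ± 0.04 (SE, n = 3 each, edgeR adjusted p = 0.000386). H2AZ2 had 150, 145 and 145 CPM in sµg, against 162, 161 and 165 CPM in 1g, a log2 fold change of -0.15 ± 0.0357 (SE, edgeR adjusted p = 0.00306). Neither overlapped between conditions. The H2AZ1 gene lies across H2AZ1-DT on the opposite strand, and whether reads were shared was not tested. H2AZ1 was highest in sµg replicate 3, and without that replicate its log2 fold change was 0.18 (edgeR adjusted p = 3.19e-08). H2AZ2 did not pass when TPM was tested in place of counts.

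MACROH2A1, whose protein carries a large extra domain and is enriched in silent chromatin, was higher. It had 147, 148 and 153 CPM in sµg, against 125, 122 and 125 CPM in 1g, with no overlap, and the log2 fold change was 0.27 ± 0.0367 (SE, n = 3 each, edgeR adjusted p = 1.51e-05). Its counts were fractional in every library, so some reads were shared with other genes. MACROH2A1 overlaps PITX1-AS1 and an unnamed gene on the opposite strand, and their part in its value was not tested. Its paralog MACROH2A2 was lower in level and overlapped, with 22.5, 21.1 and 23.6 CPM in sµg and 21.1, 22.0 and 23.3 CPM in 1g (edgeR adjusted p = 0.854).

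Variants that were not called included H3.3, the replacement H3. Its gene H3-3A had 783, 811 and 829 CPM in sµg and 793, 742 and 754 CPM in 1g, which overlapped (log2 fold change 0.08, edgeR adjusted p = 0.111). H3-3B had 514, 515 and 518 CPM in sµg and 494, 510 and 508 CPM in 1g, which did not overlap but differed by only 0.03 on the log2 scale (edgeR adjusted p = 0.503). Both were called higher when TPM was tested in place of counts. Counts of H3-3A were fractional in every library and those of H3-3B were whole in only 3, so some reads were shared with other genes. H3-3A overlaps H3-3A-DT and H3-3B overlaps UNK, each on the opposite strand, and their part in the values was not tested. H2AX, the variant phosphorylated at DNA breaks and the single variant here with a stem-loop, had 115, 114 and 141 CPM in sµg and 123, 103 and 99.6 CPM in 1g. Its groups overlapped, sµg replicate 3 was the highest, and the log2 fold change of 0.18 (edgeR adjusted p = 0.359) was 0.08 without that replicate. Most H2AX reads were assigned to H2AX-202, which runs 1024 bases past the stem-loop. H2AJ, an H2A variant, had 13.7, 14.9 and 16.8 CPM in sµg and 18.2, 14.8 and 16.9 CPM in 1g, which overlapped (edgeR adjusted p = 0.234). CENPA, the centromeric H3 variant that the naming rule does not take in, had 11.7, 13.7 and 14.1 CPM in sµg, against 17.7, 14.8 and 15.3 CPM in 1g, a log2 fold change of -0.28 ± 0.0899 (SE, edgeR adjusted p = 0.0203).

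**Figure D3:**
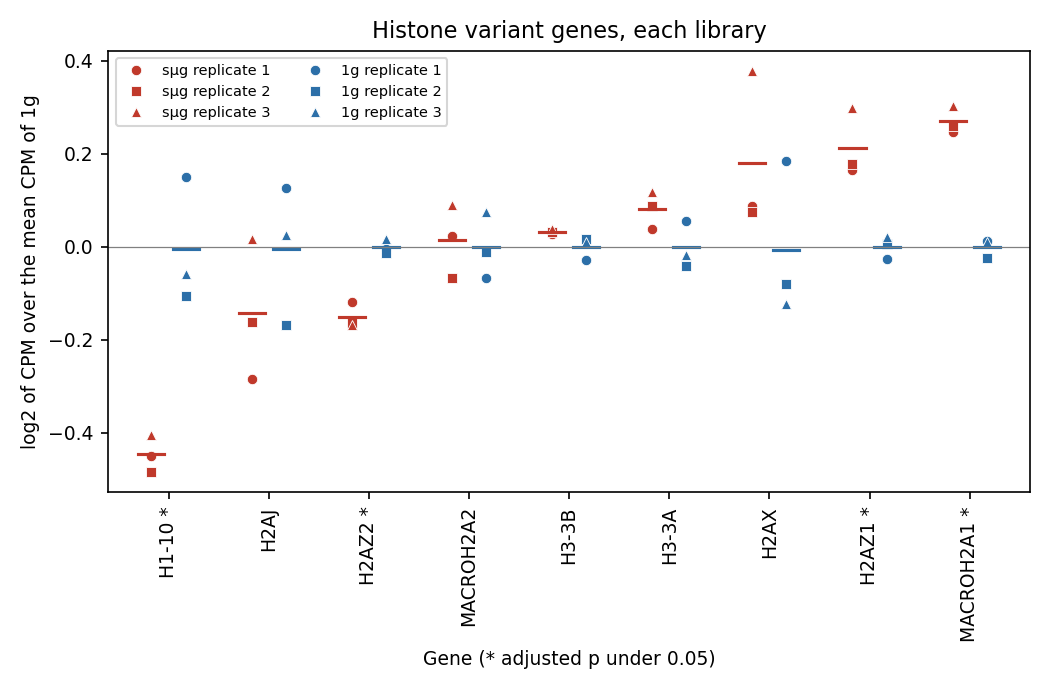
Each of the 9 variant genes is shown with its 3 sµg libraries on the left in red and its 3 1g libraries on the right in blue, as the log2 of CPM over the mean CPM of 1g, with short lines for the means of the log2 values and stars for an adjusted p under 0.05. H1-10 lies 0.45 below 1g, and the means of the other variants stay between -0.15 and 0.27.

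Single transcripts gave far fewer calls than genes. Of 53807 transcripts tested, 0.476% were called higher and 1.29% lower. Among 30 transcripts of 25 replication-dependent genes 0 were called in either direction by edgeR, although 8 had an unadjusted p under 0.05 and all of these were higher in sµg. Among 49 transcripts of the 9 variants 0 were called by edgeR, and 10 had an unadjusted p under 0.05, 7 of them higher and 3 lower. The main transcripts H1-10-201 (-0.46), MACROH2A1-201 (0.28) and H2AZ1-201 (0.21) kept the sign of their genes and missed the threshold, with edgeR adjusted p = 0.0514, 0.0517 and 0.0547. H4C8-202 and H4C8-203, which run 630 and 1655 bases past the stem-loop, had log2 fold changes of 0.77 and 0.97 and did not pass either.

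Of 25 genes that make and handle histone mRNA, 4 were higher and 3 were lower (5 and 4 without sµg replicate 3), where 15.5% and 18.2% of all genes tested were called in those directions, with a median log2 fold change of 0.01. SLBP, which binds the stem-loop, had 54.9, 58.9 and 62.7 CPM in sµg and 57.4, 55.2 and 55.2 CPM in 1g, which overlapped (edgeR adjusted p = 0.303). NPAT, the coactivator of histone gene transcription, had 39.5, 42.5 and 37.4 CPM in sµg and 37.2, 40.01 and 37.8 CPM in 1g (edgeR adjusted p = 0.482). ERI1, an exonuclease that trims histone mRNA at the stem-loop, was lower, at 33.3 ± 0.548 CPM in sµg and 45.3 ± 1.56 CPM in 1g (SD, n = 3 each, log2 fold change -0.44, edgeR adjusted p = 1.73e-06). CSTF2, a cleavage factor, was higher at a log2 fold change of 0.22, and MIF4GD, which joins SLBP in translation, and the cap binding subunit NCBP2 were lower at -0.35 and -0.17.

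Histone chaperones, which escort histones to and from DNA, were higher more often than lower, at 11 and 2 of 28 (16 and 2 without sµg replicate 3), with a median log2 fold change of 0.09. Over all genes tested, 15.5% were called higher and 18.2% lower. ANP32E, which removes H2A.Z from chromatin, had 196 ± 3.57 CPM in sµg and 152 ± 2.65 CPM in 1g (SD, n = 3 each), which is 0.37 higher on the log2 scale (edgeR adjusted p = 2.19e-07). The paralogs of ASF1, a chaperone of H3 and H4, went in opposite directions. ASF1A had 52.5 ± 1.86 CPM in sµg and 40.9 ± 0.88 CPM in 1g, and ASF1B had 39.98 ± 1.62 CPM in sµg and 50.7 ± 1.63 CPM in 1g. HJURP, which loads CENPA at centromeres, was higher at a log2 fold change of 0.24 (edgeR adjusted p = 0.000429), while CENPA was lower. Among the S phase genes the smallest adjusted p belonged to RRM2, a subunit of ribonucleotide reductase, with 203 ± 4.05 CPM in sµg and 172 ± 5.83 CPM in 1g. CCNE1, MCM6 and TYMS followed, with log2 fold changes of 0.22, 0.17 and 0.16. Of the 30 S phase genes 11 were called higher and 2 lower, these being CDT1 at -0.18 and CCNE2 at -0.27, and the others were not called.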

How the data were processed

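RNA of 3 sµg and 3 1g libraries (stranded poly(A) kit) was processed by the authors, who used STAR 2.7.7a on the GRCh38.p13 genome with GENCODE 36 genes, and then RSEM 1.3.3 for quantification, each with default settings or with a looser alignment filter. The sources used here do not name the alignment behind these tables. The deposited expected counts are RSEM's estimates of read pairs per gene or transcript, with shared reads divided by probability. The deposited TPM values are those estimates divided by effective length and scaled to 1 sum per library. The deposited effective lengths were used in an alternative. Members and gene lists were chosen with earlier results of these data known.

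Symbols and positions are from GENCODE 44, matched by identifier. Expected counts were rounded and tested with edgeR 4.0.16 in R 4.3.3 (quasi-likelihood, robust dispersion, TMM scaling, filterByExpr set to 10 counts at least and a total of 15, condition as the single factor, Benjamini-Hochberg over all genes, adjusted p under 0.05). The scripts were tested on simulated data. CPM are scaled by TMM, and depth is 19971097 to 28506848 expected counts. Any member could be named, but 1 item is not reported here. Values per library were given for the variants and for the cluster genes of each family with the smallest adjusted p or highest TPM, and from each list the genes with the smallest adjusted p, with SLBP, NPAT and CENPA. Alternatives were DESeq2 1.42.0, limma 3.58.1 on log2(TPM + 1) or log2(TPM + 0.1), RLE scaling, other filters, an effective length offset, a replicate block, summed copies, a threshold of 0.01 and leaving out each library. Stem-loops were matched to the genome and promoter motifs to RefSeq. No exact permutation test was made, since 3 against 3 libraries allow no p smaller than 0.1.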

Additional observations from a re-analysis of the deposited data

How the results depend on the processing

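The count of replication-dependent genes called stayed between 6 and 9 under the alternatives, set beside 8. It was 6 with the effective length offset, where H2BC5 and H2BC9 did not pass, 7 with limma on log2(TPM + 0.1) and at an adjusted p under 0.01, and 8 with DESeq2, RLE scaling, either other filter and limma on log2(TPM + 1). With limma on log2(TPM + 1) H2BC9 was lost and H4C15 gained, and on log2(TPM + 0.1) H2BC5 and H2BC9 were lost and H4C15 gained. Leaving out each library in turn gave 7 to 9, and 0 to 1 called lower, the 1 being H4C12 without 1g replicate 1, where it shares reads with H4C11. H3C10 did not pass without sµg replicate 3, and H2BC9 did not pass without 1g replicate 1. The count of variants called, 4, stayed between 4 and 6, and leaving out each library gave 4 to 6. With limma on either TPM scale 4 variants were higher in place of 2, since H3-3A and H3-3B were added, and 1 was lower in place of 2, since H2AZ2 was lost. Over all genes the count of 5648 was 2979 with limma on log2(TPM + 1), 2915 with limma on log2(TPM + 0.1) and 3106 with the offset. At an adjusted p under 0.01, 1587 genes were higher, where 2591 were at 0.05. No histone gene that was called changed its sign under any alternative run, and the other named genes were not run through them. The summing of H4C11 with H4C12 was chosen after seeing the data, and that of H2AC18 with H2AC19 could not be run.

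The methods call the control samples matched but do not say which library matches which, and the labels give no pairing. Deviations from the group means correlated at 0.0144, 0.0431 and 0.0194 between libraries of the same number. A fit with the replicate block called 8 replication-dependent and 4 variant genes, the same genes as without it, and 5676 over all genes. Each library correlated best with its own number, as a hint from the data.

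The 40 replication-dependent genes with few reads could not be tested, why they had few was not tested, and the poly(A) selection limits what the 27 others show of total histone mRNA. Neither the cell cycle nor the mix of lines was measured in these libraries.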
